A study of Mus musculus with 78 samples.

Results

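The mitochondrial genome transcripts described here are the genes that the deposited expression table places on chromosome MT. The rule kept each row with that chromosome label, and used no expression value. It found 37 of the 54532 genes in the table: 13 protein genes, 2 ribosomal RNA (rRNA) genes and 22 transfer RNA (tRNA) genes. All 37 had the same coordinates in the GENCODE M21 annotation of the GRCm38 mouse genome, so positions are given on that build.

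The RNA came from cerebral arteries of male wild-type (WT) C57Bl6 mice. The mice ate ad libitum (AL) or kept to intermittent fasting (IF) for 3 months. Surgery followed: either bilateral carotid artery stenosis (BCAS), a narrowing of both carotid arteries that reduces flow to the brain over the long term, or a sham procedure. Arteries were taken 1, 7, 14, 21 or 30 days after surgery, and the 78 libraries fell into 20 groups of surgery, diet and day, in 4 arms (sham AL, sham IF, BCAS AL and BCAS IF). Of the groups 18 held 4 libraries, and the other two held 3 (BCAS AL of day 1, sham IF of day 7). All mice had surgery or a sham operation, so no group was left without an operation. Day 7 stands in the group labels only, and the labels give neither the age of the mice nor the fasting schedule. Nothing in the labels says that the libraries of a group came from separate mice, so the p-values measured the spread between libraries only.

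The mitochondrial genome is a small circle that is transcribed from both strands into long precursors. Most tRNA genes lie between the other genes, and cutting them out releases the rRNAs and the messenger RNAs. The rRNAs form the core of the mitochondrial ribosome, and the protein genes encode subunits of complexes I, III, IV and V of oxidative phosphorylation, the pathway that makes ATP. In arteries this pathway works in smooth muscle and endothelial cells, and the endothelium of brain vessels is known for a high content of mitochondria.

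The sequences of 5 tRNA genes are shown because 3 of them (mt-Tc, mt-Tn and mt-Tl1, for cysteine, asparagine and 1 of the leucine tRNAs) changed with fasting, and the other two (mt-Tp for proline and mt-Te for glutamate) were among the most abundant tRNA rows. They are read 5′ to 3′ on the gene's own strand from the GENCODE M21 transcripts, and the capitals mark the anticodon.
mt-Tc: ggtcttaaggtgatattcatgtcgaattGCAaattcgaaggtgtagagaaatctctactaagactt
mt-Tn: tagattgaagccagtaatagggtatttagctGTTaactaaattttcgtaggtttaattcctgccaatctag
mt-Tl1: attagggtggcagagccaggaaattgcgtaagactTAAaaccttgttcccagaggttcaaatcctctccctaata
mt-Tp: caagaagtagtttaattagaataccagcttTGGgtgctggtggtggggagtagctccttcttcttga
mt-Te: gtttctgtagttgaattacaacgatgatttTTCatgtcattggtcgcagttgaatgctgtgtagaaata

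Depth ran from 14601572 to 25944175 fragments per library, of which 761361 to 1713805 were mitochondrial. 3 libraries held 0.279% to 0.322% of their fragments in genes under 300 bases, against 0.0563% to 0.106% in the others: sham AL day 7 replicates 2 and 4, and BCAS AL day 1 replicate 2. Their mitochondrial fragments were 3.98%, 3.50% and 3.199% rRNA, against medians of 2.69% in sham AL and 2.55% in BCAS AL. The range over all libraries was 1.20% to 3.98%, with sham AL day 7 replicate 2 the highest. No pair of libraries was identical. The tissue label was checked against markers of other cells. All 8 smooth muscle and all 9 endothelial markers had a median of at least 1 FPKM over the 78 libraries. Their summed levels had medians of 5731 to 6537 and 746 to 846 FPKM in the 4 arms. Of 9 neuron markers 6 had a median under 1 FPKM. This held for 2 of 6 oligodendrocyte and 0 of 5 astrocyte markers. The astrocyte sums had arm medians of 73.4 to 80.4 FPKM, and the oligodendrocyte sum reached 199 FPKM in a sham IF library. The red blood cell sums had arm medians of 86.0 to 200 FPKM and reached 3019 FPKM in a BCAS IF library. The 7 meningeal fibroblast markers, Ptgds among them, were summed at medians of 40001 to 44066 FPKM, more than the smooth muscle markers. With Ptgds taken out of the total, the mitochondrial share of sham AL day 1 replicate 1 went from 7.28% to 7.86%. The part of Ptgds in the marker sum was not separated, so this sum does not rank cell content.

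Few genes held most of the mitochondrial RNA. Levels are in FPKM (fragments scaled to gene length and to library size), which compares genes per length. Over the 78 libraries mt-Cytb, the complex III subunit cytochrome b, had the highest mean level, 14721 ± 1522 FPKM (SD, n = 78). The complex I subunits mt-Nd4 (8660 FPKM), mt-Nd1 (8484.5), mt-Nd6 (7181) and mt-Nd2 (6122) and the complex IV subunit mt-Co1 (8427) came next. These 6 genes took 88.1% to 94.96% of the mitochondrial fragments of each library.

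The other protein genes were lower. The complex I subunit mt-Nd5 had a mean of 1218 FPKM, mt-Co2 and mt-Co3 of complex IV had 363 and 132, the complex V subunit mt-Atp6 had 167, and mt-Nd3 of complex I had 116. The lowest protein genes were mt-Nd4l (10.3 FPKM, complex I) and mt-Atp8 (7.56 FPKM, complex V). The rRNAs mt-Rnr1 (12S, MT:70-1024) and mt-Rnr2 (16S, MT:1094-2675) had means of 738 ± 212 and 434 ± 130 FPKM (SD, n = 78). The ranges of mean ± SD of mt-Nd4, mt-Nd1, mt-Co1 and mt-Nd6 overlapped. All were measured in the same libraries, so this overlap does not decide their order, which was not compared within libraries. Some rows share bases or strands: mt-Atp8 (MT:7766-7969) overlaps mt-Atp6 (MT:7927-8607), mt-Nd4l overlaps mt-Nd4, and mt-Nd6 (MT:13552-14070, minus strand) overlaps the end of mt-Nd5. How the authors' counting treated overlaps and strand is not given in the sources used here, so levels of these pairs are uncertain.

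**Figure D1:**
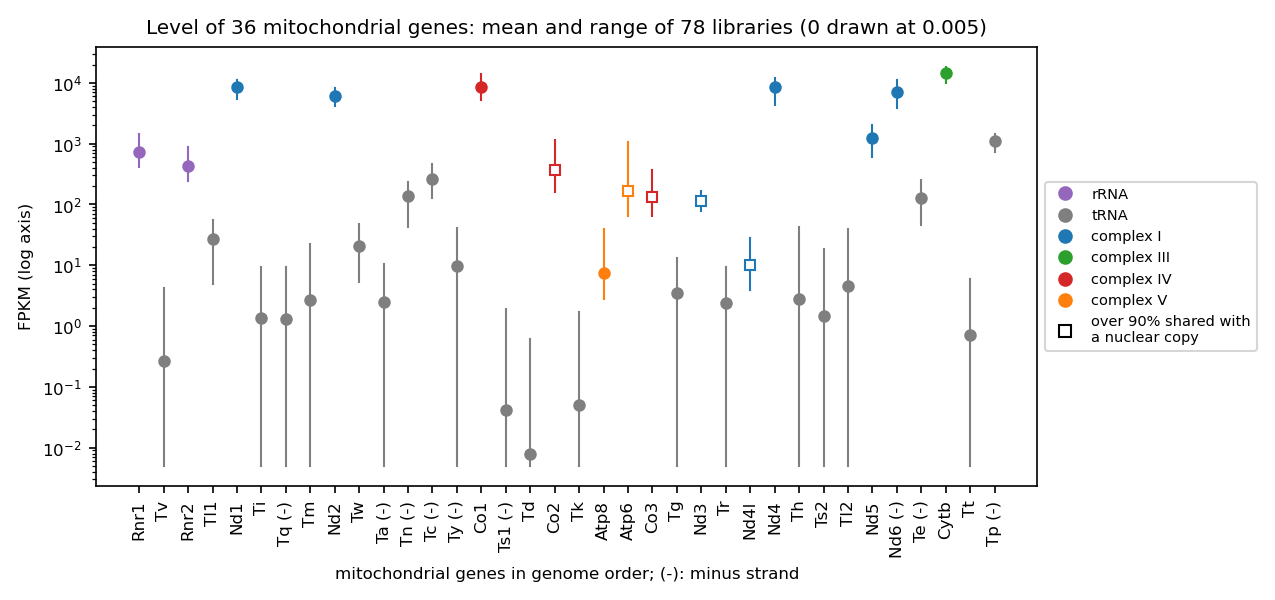
Mean level (points) and range over 78 libraries (lines) of 36 mitochondrial genes in genome order, in FPKM on a log axis, coloured by role, with open squares for genes whose sequence is almost wholly shared with a nuclear copy. mt-Tf, listed at 0 in all 78 libraries, is not drawn; mt-Cytb stands highest at 14721 FPKM and the plus-strand tRNA genes stay under 100 FPKM.

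Protein genes that share their sequence with a nuclear copy were among the lower ones. Chromosome 1 of the mouse carries a stretch of mitochondrial DNA, annotated as 7 pseudogenes between chr1:24611535-24616197 (GRCm38, minus strand). Of the windows of 100 bases along each gene, 97.6% or more were also found, base for base, in such a pseudogene for mt-Co2, mt-Atp6, mt-Co3, mt-Nd3 and mt-Nd4l. These 5 genes had mean levels of 10.3 to 363 FPKM. No window was shared for mt-Nd1, mt-Nd2, mt-Nd5, mt-Nd6, mt-Cytb and mt-Atp8, of which the first 5 had 1218 to 14721 FPKM and mt-Atp8 had 7.56. mt-Nd4 shared 60.8% and mt-Co1 26.3% of their windows. Nuclear sequence between the annotated pseudogenes was not compared.

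The start of mt-Co2 (MT:7013-7696) is shown because its first 681 bases are the same as the whole of the pseudogene Gm28661, so that a fragment from either place reads alike. The starts of mt-Nd3 (MT:9459-9806) and the pseudogene Gm28438 (chr1:24612775-24613119) are shown because the pair differs at a single base, T3C counted from the 5′ end of mt-Nd3, marked in capitals.
mt-Co2 and Gm28661: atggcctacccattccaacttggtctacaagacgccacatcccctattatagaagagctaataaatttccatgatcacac
mt-Nd3: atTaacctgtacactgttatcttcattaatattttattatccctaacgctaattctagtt
Gm28438: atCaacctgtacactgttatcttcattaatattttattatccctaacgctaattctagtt

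The level listed for a copy was close to that of its mitochondrial gene in some pairs and far below in others. mt-Co2 had 363 FPKM and Gm28661 had 383. mt-Atp6 had 167 FPKM and Gm10925 had 142, while mt-Nd4l had 10.3 and Gm10222 had 7.21. mt-Co3 had 132 FPKM against 72.8 for Gm28437, and mt-Nd3 had 116 against 25.6 for Gm28438. How fragments that match both places were counted is not given in the sources used here, so the levels of these 5 genes are uncertain, and the part of the shared sequence in them was not tested.

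Among the 22 tRNA genes all rows above 100 FPKM were on the minus strand, though not all minus-strand rows were high. Of the 8 minus-strand tRNA genes 4 were above 100 FPKM: mt-Tp (1126 FPKM), mt-Tc (258), mt-Tn (136) and mt-Te (126). The other 4 were under 10 FPKM, as were 12 of the plus-strand genes. None of the 14 plus-strand tRNA genes reached 100 FPKM, and the highest was mt-Tl1 with 26.7. The median of the mean levels was 1.94 FPKM for the plus-strand set. For the minus-strand set it was 67.7 FPKM, which falls between the 4 high and the 4 low genes. The tRNA rows were thinly covered for all that: the median library had 1433 fragments for mt-Tp, 313 for mt-Tc, 170 for mt-Tn and 36.5 for mt-Tl1. mt-Tf, the tRNA for phenylalanine, was listed at 0 in 78 of 78 libraries, where 3 fragments would have been 1.65 to 2.92 FPKM. Mature tRNA and uncut precursor cannot be told apart in a tRNA row.

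Together the 37 genes took a similar share of the fragments in all 4 arms. The share was 6.40% ± 0.55 (SD, n = 20) in sham AL, 6.68% ± 0.49 (n = 19) in sham IF, 6.27% ± 0.43 (n = 19) in BCAS AL and 6.44% ± 0.59 (n = 20) in BCAS IF. The differences between arm means were smaller than the SD of an arm, and the ranges overlapped. The lowest library held 4.62% and the highest 7.54%. In bulk RNA, fewer cells of a type and less RNA per cell cannot be told apart.

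**Figure D2:**
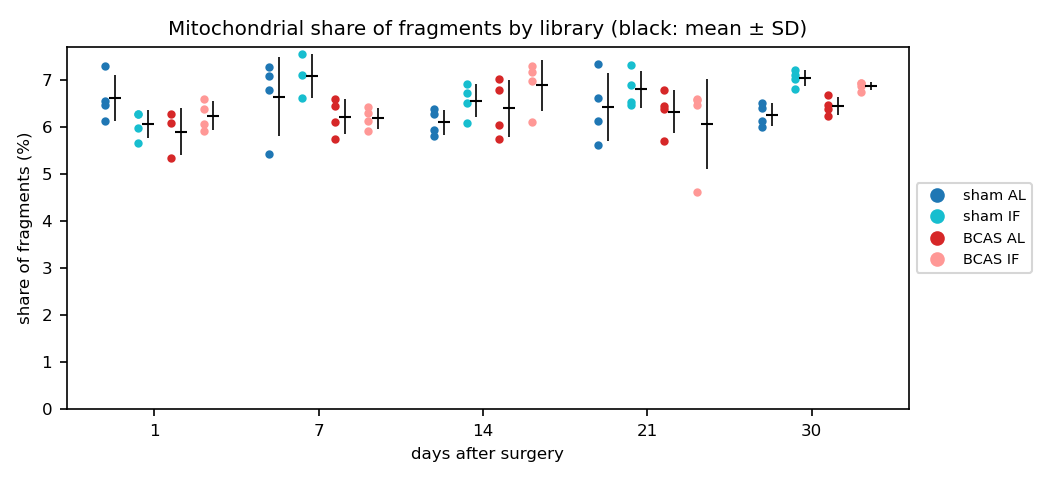
Share of fragments (%) from the 37 mitochondrial genes in each library (points) by day after surgery and arm, with the group mean and SD in black. Group means ran from 5.89% (BCAS AL, day 1) to 7.08% (sham IF, day 7), and 1 BCAS IF library of day 21 sits at 4.62%.

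Within groups, the abundant genes varied in sets. For the 17 genes with a mean of at least 100 FPKM, each library's deviation from its group mean (log2 scale) was compared between genes, over 78 libraries and 136 pairs, with permutation p-values from 100000 permutations within groups and Benjamini-Hochberg adjustment over the pairs. mt-Nd1 and mt-Cytb deviated together (Pearson's r = 0.963, Spearman's rho = 0.950, both with permutation p = 1e-05, the smallest these permutations can give, adjusted 5.44e-05 and 5.67e-05). Without the 2 libraries farthest from the median of mt-Nd1, r was 0.948. The 10 pairs among mt-Cytb, mt-Nd1, mt-Nd2, mt-Nd4 and mt-Nd6 had r of 0.885 to 0.964, although mt-Nd6 lies on the other strand. mt-Co1, mt-Nd5 and mt-Te formed another set with r of 0.633 to 0.879, and r between these 2 sets ran from -0.30 to 0.26.

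The rRNAs were tied to each other more than to the messenger RNAs. For mt-Rnr1 and mt-Rnr2 r was 0.925 and rho 0.904 (permutation p = 1e-05 for each, adjusted 5.44e-05 and 5.67e-05), and r was 0.913 without the 2 farthest libraries. Their r with the other 15 genes ran from -0.18 to 0.41. In all 62 of the 136 pairs passed an adjusted permutation p of 0.05. The sets were grouped after these values were seen, and all rows of a library share its total, so the ranges are a description.

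**Figure D3:**
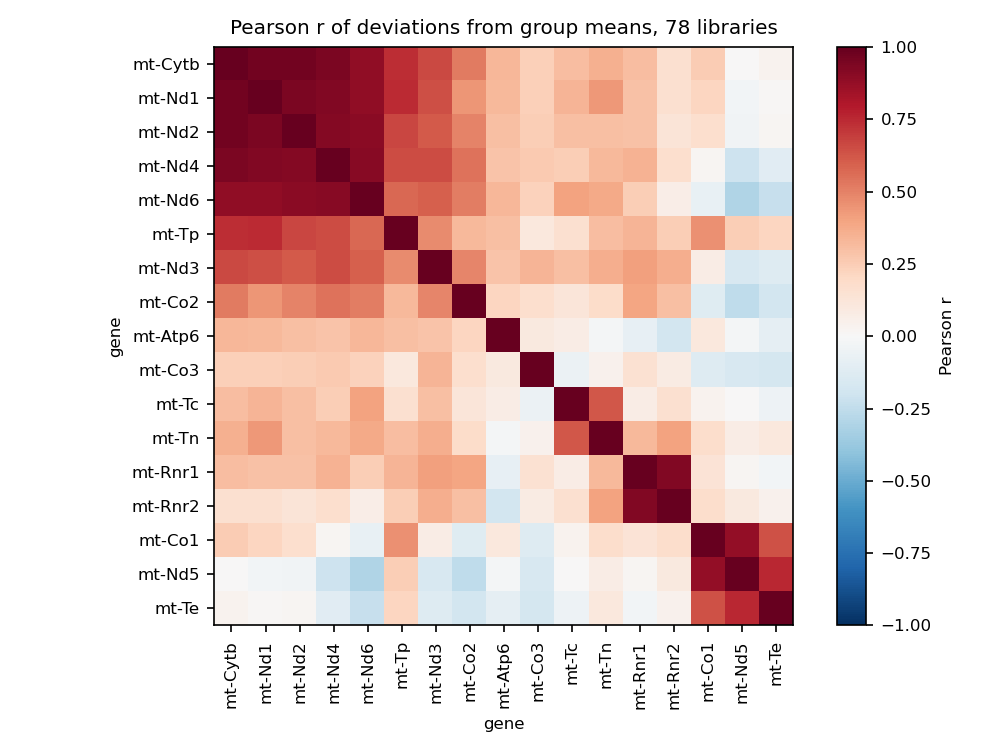
Pearson's r between 17 mitochondrial genes (both axes) of the deviations of 78 libraries from their group means, from -1 (blue) to 1 (red). The set of mt-Cytb, mt-Nd1, mt-Nd2, mt-Nd4 and mt-Nd6 (0.885 to 0.964), the rRNA pair (0.925) and the set of mt-Co1, mt-Nd5 and mt-Te (0.633 to 0.879) stand out as blocks.

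Fasting was compared with ad libitum feeding after each surgery, to ask which transcripts differed by diet. Averaged over the 5 days, both mitochondrial rRNAs were lower in fasted mice after sham and after BCAS, while mt-Tc, mt-Tn and mt-Nd6 were higher. The tests were made with limma on log2(FPKM + 1) over all 15707 genes with at least 1 FPKM in 3 or more libraries, which kept 33 of the 37 members, and p-values were adjusted over all genes (Benjamini-Hochberg, threshold 0.05). On this scale a change of a low gene is understated. Over the mean of the 5 daily differences 8 of 33 members passed after sham, 5 higher and 3 lower, and 5 of 33 passed after BCAS, 3 higher and 2 lower. Of all genes 23.7% passed after sham (11.8% higher and 11.9% lower) and 23.1% after BCAS (11.2% higher and 11.9% lower). The member counts were near these shares after sham and below them after BCAS. The median log2 difference of the members was 0.05 after sham and 0.04 after BCAS, and that of all genes 0.01 and 0.00. These comparisons share no library. The 5 members that passed after BCAS were among the 8 that passed after sham, in the same directions.

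**Figure D4:**
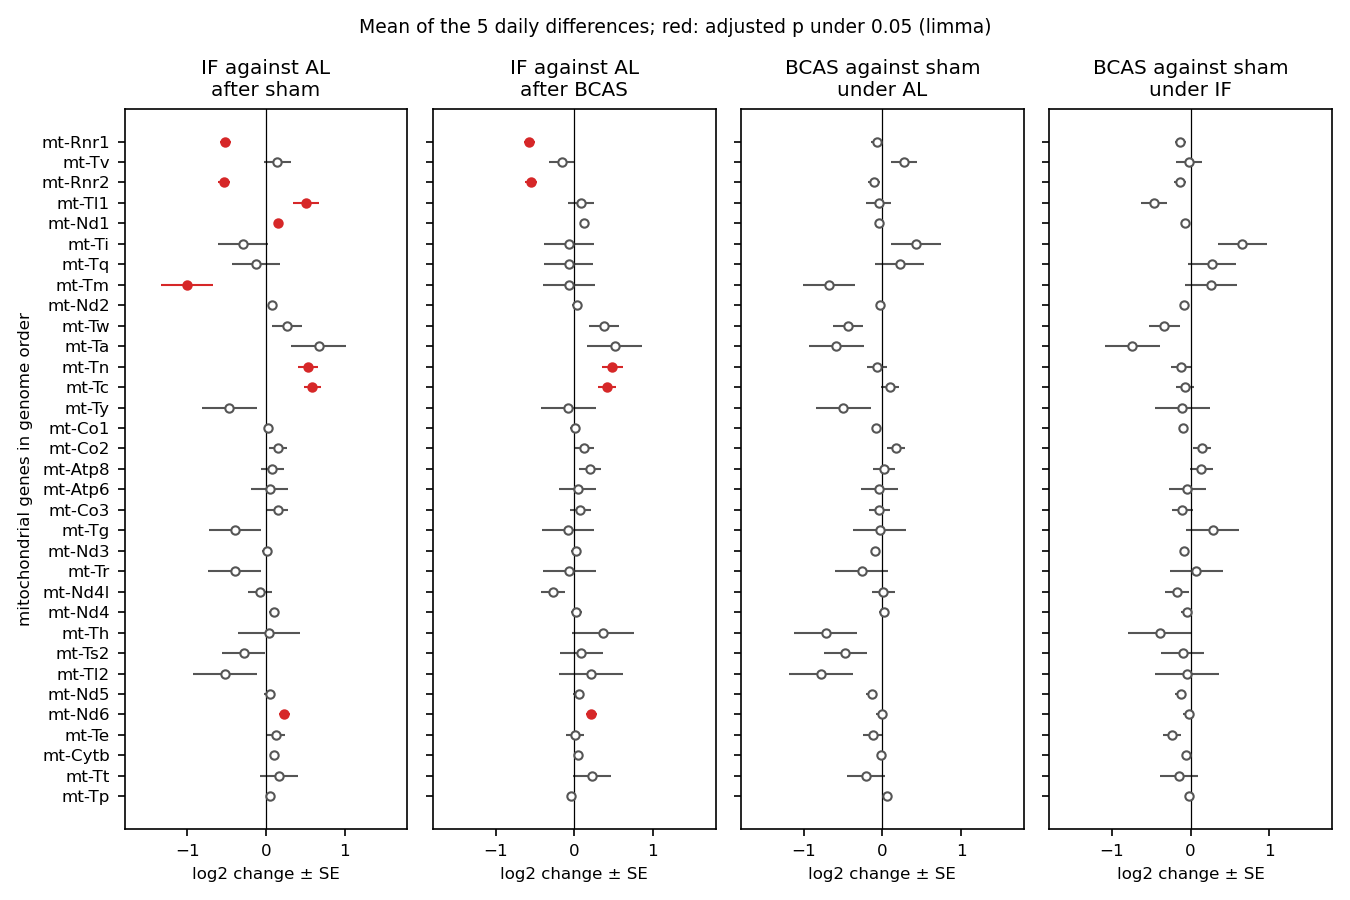
Log2 difference ± SE (limma, log2(FPKM + 1)) of 33 mitochondrial genes in genome order, as the mean of 5 daily differences, for fasting after each surgery and for BCAS under each diet; red marks an adjusted p under 0.05. Both rRNAs are lower with fasting in each panel (-0.52 to -0.57), and no gene is red in the BCAS panels.

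mt-Rnr1, the small-subunit rRNA, ran from 629 to 1433 FPKM in sham AL (median 862, n = 20) and from 438 to 907 in sham IF (median 587, n = 19). After BCAS it ran from 565 to 1223 in AL (median 833, n = 19) and from 407 to 738 in IF (median 562, n = 20). Both medians of fasted mice lay below the lowest AL library after sham and, by a small margin, after BCAS, but the arms overlapped. The log2 difference was -0.52 ± 0.07 (SE, limma, adjusted p = 1.14e-07) after sham and -0.57 ± 0.07 (limma, adjusted p = 7.33e-09) after BCAS, or 0.699 and 0.674 times the AL level.

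mt-Rnr2, the large-subunit rRNA, moved the same way. It ran from 343 to 870 FPKM in sham AL (median 529) and from 265 to 510 in sham IF (median 367), and from 301 to 754 in BCAS AL (median 484) and 239 to 432 in BCAS IF (median 317). Its log2 difference was -0.53 ± 0.08 (SE, limma, adjusted p = 1.98e-07) after sham and -0.55 ± 0.08 (limma, adjusted p = 5.75e-08) after BCAS. The rRNAs made up 2.69% ± 0.58 of mitochondrial fragments in sham AL and 1.77% ± 0.33 in sham IF (SD, n = 20 and 19), and 2.57% ± 0.54 in BCAS AL and 1.69% ± 0.34 in BCAS IF (n = 19 and 20). Whether the libraries were made by poly(A) selection or by rRNA depletion is not given in the sources used here.

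The rRNA difference was seen on most days. On day 1 after BCAS mt-Rnr1 was at 833, 1016 and 899 FPKM in AL and at 422, 516, 644 and 421 in IF, with no overlap. On day 14 after BCAS it was at 846, 1004, 974 and 946 FPKM in AL and at 535, 666, 568 and 569 in IF, again with no overlap. The log2 differences were -0.89 ± 0.17 and -0.69 ± 0.16 (SE, limma, adjusted p = 0.0007 and 0.00341). The BCAS AL day 1 group holds 1 of the 3 short-gene-rich libraries, and without these libraries the day 1 difference was -0.81 (adjusted p = 0.00909). On day 1 all 5 red blood cell markers also fell (median -3.42) and 1 of 5 astrocyte markers rose. On day 14 no red blood cell marker passed, while 1 of 8 smooth muscle and 1 of 9 endothelial markers fell and 1 of 5 macrophage markers rose. Their part in the rRNA difference was not tested. mt-Rnr2 passed on the same days, with -0.81 and -0.66 (limma, adjusted p = 0.00376 and 0.00879), though with the day 1 groups alone its adjusted p was 0.0522. After BCAS these were the 2 members of 33 that passed on day 1 (4.37% of all genes) and on day 14 (5.67%). Each IF library was below each AL library for both rRNAs on days 1, 7, 14 and 21 after BCAS, where 9.56%, 4.26%, 6.16% and 4.77% of all genes were lower without overlap. Day 30 overlapped. On days 7, 21 and 30 after BCAS 0 members passed (2.25%, 0.802% and 1.35% of all genes), with 2, 5 and 7 at an unadjusted p under 0.05.

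After sham, both rRNAs passed on days 1 and 7. On day 1 mt-Rnr1 was at 846, 665, 661 and 720 FPKM in AL and at 438, 477, 471 and 492 in IF. On day 7 it was at 1053, 1433, 1046 and 794 in AL and at 662, 583 and 585 in IF. The groups did not overlap on either day. Of the markers 1 of 3 for choroid plexus fell on day 1, and 1 of 9 endothelial fell and the 1 ependymal rose on day 7. For comparison, 4.74% and 4.3% of all genes were lower without overlap on those days. The log2 differences of mt-Rnr1 were -0.62 ± 0.16 and -0.80 ± 0.17 (SE, limma, adjusted p = 0.0168 and 0.00218), and those of mt-Rnr2 were -0.59 and -0.92 (limma, adjusted p = 0.0313 and 0.000778). They were the only members to pass on day 1 (3.67% of all genes) and day 7 (9.05%). On days 14, 21 and 30 mt-Rnr1 differed by -0.41, -0.26 and -0.49, none past the threshold (limma, adjusted p = 0.127, 0.603 and 0.0547). On days 14 and 21 0 members passed (4.39% and 0.382% of all genes), with 7 and 2 at an unadjusted p under 0.05. The day 1 call of mt-Rnr1 was lost without sham AL replicate 1 or sham IF replicate 2 or 3 (adjusted p up to 0.111), and that of mt-Rnr2 without any of these or sham AL replicate 4 or sham IF replicate 1 (up to 0.123). The latter was also lost with no filter on low values (adjusted p = 0.0666). On day 7 both calls held without the short-gene-rich libraries (-0.78 and -0.79, limma, adjusted p = 0.0203 and 0.0341), but a model of the compared groups alone gave neither (adjusted p = 0.468 and 0.331).

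**Figure D5:**
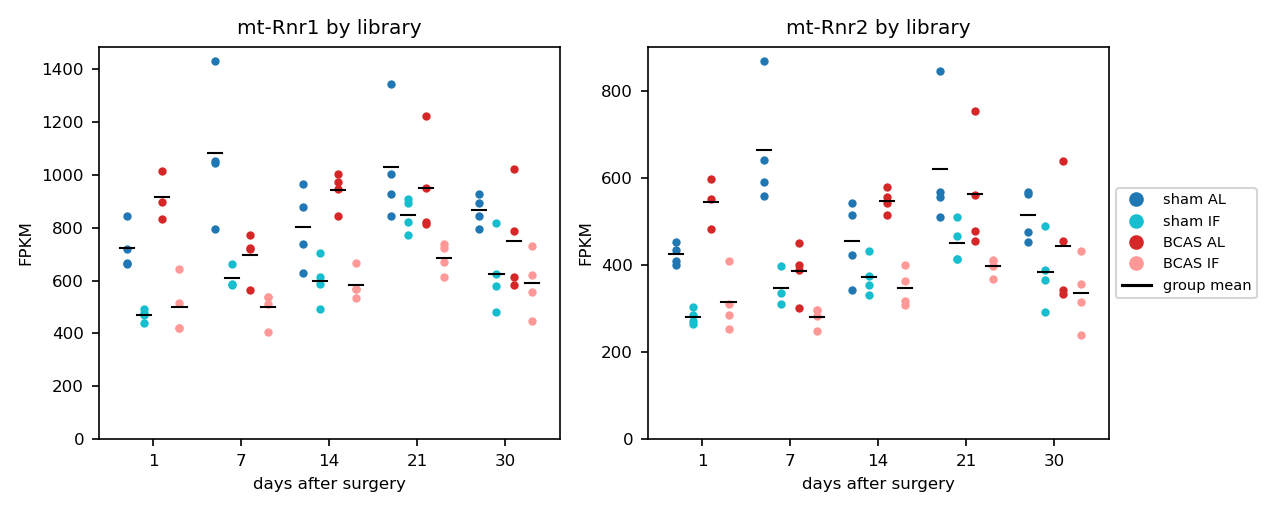
Level in FPKM of mt-Rnr1 (left) and mt-Rnr2 (right) in each library (points) by day after surgery, coloured by arm, with group means as bars. On days 1, 7, 14 and 21 the BCAS IF libraries lie below all BCAS AL libraries, as the sham IF libraries do below sham AL on days 1 and 7.

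Some nuclear transcripts, looked up after these values were seen, moved with the rRNAs in part. Malat1, a long nuclear RNA, Rn7sk, the small nuclear RNA that holds back a transcription elongation factor, Lars2, the mitochondrial leucyl-tRNA synthetase, and the non-coding gene Gm26917 fell by 0.46, 0.88, 0.66 and 0.53 on the log2 scale with fasting after sham (limma, adjusted p from 4.15e-06 to 0.0417). On day 7 after sham alone they fell by 1.74, 3.72, 2.45 and 1.68 (limma, adjusted p from 7.58e-10 to 0.0015). On days 1, 14, 21 and 30 after sham none of the 4 passed. Replicates 2 and 4 of sham AL day 7 are among the libraries rich in short genes. Averaged over the days after BCAS, Malat1 differed by 0.02, Rn7sk by -0.44 and Lars2 by -0.36, none past the threshold, and Gm26917 fell by 0.33 (limma, adjusted p = 0.0198). On day 1 after BCAS, the day of the largest rRNA difference after BCAS, Lars2 fell by 1.51 and Gm26917 by 1.18 (limma, adjusted p = 0.0127 and 0.00351), while Rn7sk differed by -1.48 and Malat1 by -0.03 without passing. On day 14 after BCAS none of the 4 passed, with differences of -0.33 for Gm26917 and -0.08 for Rn7sk. Without the 3 libraries rich in short genes the mean rRNA differences stayed past the threshold after both surgeries. The part of these transcripts in the rRNA difference was not tested.

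Of the tRNAs, mt-Tc and mt-Tn rose with fasting after both surgeries on average over the days. mt-Tc ran from 129 to 291 FPKM in sham AL (median 198) and from 204 to 463 in sham IF (median 323), a log2 difference of 0.59 ± 0.11 (SE, limma, adjusted p = 5.99e-05). After BCAS it ran from 136 to 378 in AL (median 205) and from 164 to 468 in IF (median 291), a difference of 0.42 ± 0.11 (limma, adjusted p = 0.00389). The arms overlapped in both. The rise was not seen on every day: on day 7 after BCAS mt-Tc was at 151, 187, 188 and 378 FPKM in AL and at 175, 280, 164 and 215 in IF. mt-Tn, its neighbour on the minus strand (MT:5089-5159, with mt-Tc at MT:5192-5257), had medians of 108 and 161 FPKM in sham AL and sham IF and of 108 and 137 in BCAS AL and BCAS IF. It differed by 0.53 ± 0.13 after sham and 0.49 ± 0.13 after BCAS (limma, adjusted p = 0.00149 and 0.00374). On single days 1 tRNA call was made: on day 30 after sham mt-Tc was at 191, 164, 183 and 171 FPKM in AL and at 323, 276, 356 and 463 in IF, with no overlap, as 5.37% of all genes were higher (0.97 ± 0.25, limma, adjusted p = 0.0115). It was the 1 member of 33 that passed that day (4.82% of all genes), and the call was lost without sham IF replicate 4 (adjusted p = 0.0639). In all 7 of 33 members were higher without overlap that day and 0 were lower. Beside mt-Tc these were mt-Cytb, mt-Nd1, mt-Nd2, mt-Nd6, mt-Tn and mt-Tl1. An unadjusted p under 0.05 was found for 8 members. Of 5 astrocyte markers 1 rose that day.

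The tRNAs mt-Tl1 and mt-Tm passed after sham. mt-Tl1, which directly follows mt-Rnr2 (MT:2676-2750), had medians of 24.7 FPKM in sham AL and 35.9 in sham IF and rose by 0.51 ± 0.16 (SE, limma, adjusted p = 0.0169). After BCAS it had medians of 22.1 and 23.8 FPKM and differed by 0.09 (adjusted p = 0.747). mt-Tm, for methionine, fell by 1.00 ± 0.33 after sham (limma, adjusted p = 0.0217), from a median of 3.64 to 1.08 FPKM, but its median library had 3 fragments and 20 libraries had none. Its call was lost without the 3 short-gene-rich libraries (-0.83, adjusted p = 0.0645) and without sham IF day 7 replicate 3 (adjusted p = 0.0533).

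Among the protein genes the diet differences were small. mt-Nd6, the complex I subunit read from the minus strand, ran from 3897 to 11052.5 FPKM in sham AL (median 6621) and from 5365 to 10272 in sham IF (median 7540). After BCAS it ran from 4908 to 8120 in AL (median 6540) and from 5867 to 9611 in IF (median 7719). On average it rose by 0.23 ± 0.07 (SE, limma, adjusted p = 0.00986) and 0.22 ± 0.07 (limma, adjusted p = 0.0172), with overlap of the arms in both. On day 1 after sham mt-Nd6 was at 11052.5, 6780, 7185 and 7197 FPKM in AL and at 7057, 7850, 7444 and 6415 in IF. mt-Nd1, also of complex I, had medians of 8225 and 9216 FPKM in sham AL and sham IF and rose by 0.16 ± 0.05 (limma, adjusted p = 0.0181). That call was lost without the short-gene-rich libraries (0.12, adjusted p = 0.068) and without sham IF day 7 replicate 3 (adjusted p = 0.0575). After BCAS mt-Nd1 differed by 0.13 (adjusted p = 0.0558), and it passed there under 4 alternatives: median-of-ratios size factors, limma-voom, the compared groups alone, and without the short-gene-rich libraries. The other 11 protein genes passed in neither comparison, and their median with mt-Nd6 and mt-Nd1 was 0.08 after sham and 0.05 after BCAS, with 12 of 13 above 0 in each. The direction varied by day. On day 1 after sham 5 of 13 were above 0, with mt-Nd2 and mt-Nd4 lower without overlap. On days 7 and 21 after BCAS 6 and 3 of 13 were above 0. On the other days after either surgery 9 to 12 of 13 were above 0. Of the nuclear copies Gm28661 rose after sham (0.33 ± 0.10, limma, adjusted p = 0.00793), while mt-Co2 differed by 0.16 (adjusted p = 0.346).

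BCAS was compared with sham under each diet, to ask which transcripts differed with reduced carotid flow. Averaged over the 5 days, no mitochondrial gene passed. Under AL 0 of 33 members passed against 0.987% of all genes, with 2 members at an unadjusted p under 0.05. Under IF 0 of 33 passed against 0.758%, with 4 at an unadjusted p under 0.05. The limma-voom test on recovered fragments also called 0 in both. The smallest adjusted p of a member was 0.344 under AL and 0.216 under IF. The comparisons under AL and of fasting after sham use the same sham AL libraries, and those under IF and of fasting after sham use the same sham IF libraries.

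The rRNAs differed little with BCAS on average: mt-Rnr1 by -0.07 ± 0.07 and mt-Rnr2 by -0.11 ± 0.08 under AL, and both by -0.13 under IF (SE 0.07 and 0.08, limma, adjusted p from 0.592 to 0.72). mt-Nd6 differed by -0.01 and -0.02, each with an SE of 0.07. The members' median log2 difference was -0.05 under AL and -0.08 under IF, against 0.00 for all genes in both. Under IF 11 of the 13 protein genes were below 0, and under AL 9. The interaction of BCAS and diet was also tested, and 0 of 33 members passed, none with an unadjusted p under 0.05 (0.0127% of all genes passed), with 0 by limma-voom. For mt-Rnr1 the interaction was -0.05 and for mt-Rnr2 -0.02.

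On single days BCAS gave 2 member calls, both rRNAs on day 7 under AL. mt-Rnr1 was then at 1053, 1433, 1046 and 794 FPKM in sham AL and at 565, 773, 721 and 725 in BCAS AL, without overlap (2.32% of all genes were lower without overlap). mt-Rnr1 fell by 0.61 ± 0.16 and mt-Rnr2 by 0.78 ± 0.17 on the log2 scale (SE, limma, adjusted p = 0.0272 and 0.00811), and 2.63% of all genes passed that day. Without the short-gene-rich libraries, of which 2 are in the sham AL day 7 group, neither passed (-0.60 and -0.65, adjusted p = 0.124 and 0.13). A model of the 2 groups alone also gave no call (adjusted p = 0.627 and 0.52). The mt-Rnr1 call was lost without sham AL replicate 2 or BCAS AL replicate 1, 2 or 4 (adjusted p up to 0.0974). Malat1, Rn7sk, Lars2 and Gm26917 fell by 1.61, 4.73, 2.62 and 1.30 that day (limma, adjusted p from 6.34e-10 to 0.00217). Their part in the rRNA difference was not tested. The neuron markers Nefl and Nefm (2 of 8 tested, list median -0.45) also fell on day 7, and 1 ependymal and 1 macrophage marker rose. Their part was not tested either.

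On day 1 under AL both rRNAs stood higher with BCAS without passing. mt-Rnr1 differed by 0.34 and mt-Rnr2 by 0.36 (limma, adjusted p = 0.428 and 0.44). mt-Rnr2 was at 453, 410, 401 and 435 FPKM in sham AL and at 484, 599 and 552 in BCAS AL, without overlap, as 5.89% of all genes were higher. The BCAS AL library at 599 FPKM, replicate 2, is 1 of the 3 short-gene-rich libraries. On that day Lars2 rose by 1.59 (limma, adjusted p = 0.0412), all 5 red blood cell markers rose (median 3.88) and the astrocyte marker Aldh1l1 fell by 0.59. Their part in the rRNA values was not tested.

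On the remaining days no member passed. Under AL 0 of 33 passed on days 1, 14, 21 and 30 (0.376%, 0.337%, 0% and 0.357% of all genes), with 3, 3, 4 and 2 members at an unadjusted p under 0.05. Under IF 0 of 33 passed on days 1, 7, 14, 21 and 30 (0.00637%, 0.153%, 0%, 0% and 0.0891% of all genes), with 1, 4, 2, 3 and 6 at an unadjusted p under 0.05. Both rRNAs were lower without overlap in BCAS IF than in sham IF on days 7 and 21, where 3.28% and 2.13% of all genes were.

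Few of these genes passed for time after surgery, and the counts were near what genes in general showed. An F test over the 5 days passed 5 of 33 members in sham AL (17.3% of all genes), 1 in sham IF (1.88%), 0 in BCAS AL (4.48%) and 2 in BCAS IF (5.23%). In sham AL mt-Rnr1 group means were 723, 1082, 802, 1030 and 866 FPKM on days 1, 7, 14, 21 and 30 (SD 86.3, 263, 148, 219 and 57.7, n = 4 each), highest on day 7 and lowest on day 1 (limma, adjusted p = 0.0297). mt-Rnr2 (adjusted p = 0.0153), mt-Tp (0.0389), and the low tRNAs mt-Tl2 and mt-Ts2 (0.0274 and 0.00248) also passed. All 5 calls in sham AL were lost without the short-gene-rich libraries, 2 of which are on day 7. That of mt-Rnr1 was also lost without sham AL day 1 replicate 2, 3 or 4 or day 7 replicate 2 (adjusted p up to 0.0791), while that of mt-Rnr2 held without each single library in turn. For mt-Tp 10 of the 20 sham AL libraries each ended the call when left out, and for mt-Tl2 day 7 replicate 4 or day 14 replicate 1 did.

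In sham IF mt-Rnr1 was at 469 FPKM on day 1, 610 on day 7, 599 on day 14, 848 on day 21 and 625 on day 30, with day 21 the highest (limma, adjusted p = 0.0135). The call was lost without sham IF day 21 replicate 1 or 2 (adjusted p up to 0.0593). In BCAS IF mt-Te fell from a mean of 158 FPKM on day 1 to 78.4 on day 30, and mt-Nd3 was lowest on day 7 (88.8 FPKM) and highest on day 30 (137). Both passed (limma, adjusted p = 0.0155 for the smaller), but mt-Te lost its call without BCAS IF day 30 replicate 4 (adjusted p = 0.0526) and mt-Nd3 without BCAS IF day 7 replicate 1 or day 30 replicate 3 (up to 0.0534). In BCAS AL 0 members passed, and limma-voom also called 0. Of its 33 members 5 had an unadjusted p under 0.05.

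Some of the nuclear genes in 3 lists, which make, process or control mitochondrial RNA, differed with fasting. For comparison with these lists, 23.7% of all genes passed after sham and 23.1% after BCAS. Of 17 genes for transcription and replication of mitochondrial DNA, 3 rose and 3 fell with fasting after sham (median -0.02), and 2 rose and 3 fell after BCAS (median -0.05). Mgme1, a nuclease of mitochondrial DNA replication, fell by 0.39 and 0.33, and Twnk, the replicative helicase, fell by 0.20 after sham (limma, adjusted p = 6.07e-07, 1.26e-05 and 0.00095). Polrmt, the mitochondrial RNA polymerase, fell by 0.11 after sham (0.0342), and Primpol, a primase, rose by 0.17 (0.00957). After BCAS Mterf3, which lowers mitochondrial transcription, fell by 0.16, Top1mt, a topoisomerase, fell by 0.27, and Polg2, the accessory subunit of the DNA polymerase, rose by 0.19 (limma, adjusted p from 0.000181 to 0.00577).

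Of 31 genes for processing and turnover of mitochondrial RNA, 2 rose and 1 fell with fasting after sham, and 3 rose and 2 fell after BCAS, with a median of 0.00 in both. Angel2, a phosphatase that acts on the ends of mitochondrial RNAs, rose by 0.14 and 0.18 (limma, adjusted p = 0.000722 and 7.22e-06). Trmu, which modifies tRNAs, rose by 0.14 after sham, and Pus1, a pseudouridine synthase, fell by 0.16 (0.0304 and 0.0488). After BCAS Nsun3, which modifies the methionine tRNA, rose by 0.16, while Rexo2, an exonuclease for short RNAs, fell by 0.14 and Fastkd5 by 0.20 (limma, adjusted p from 0.00152 to 0.022).

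Of 7 tested regulators of mitochondrial biogenesis, 0 rose and 4 fell with fasting after sham, and 0 rose and 2 fell after BCAS. Pprc1, a coactivator related to Ppargc1a, fell by 0.31 and 0.34 (limma, adjusted p = 1.14e-07 and 1.05e-08). Gabpa, a transcription factor for respiratory chain genes, fell by 0.14 and 0.13 (0.00214 and 0.00381), and Nrf1 and Yy1 fell by 0.12 and 0.06 after sham (0.00077 and 0.0412). For BCAS averaged over the 5 days, 0 genes of these 3 lists passed under either diet, against 0.987% of all genes under AL and 0.758% under IF.

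On average over the days few markers of cell types passed with fasting, where 23.7% of all genes passed after sham and 23.1% after BCAS. None of the red blood cell, neuron, astrocyte, oligodendrocyte or skeletal muscle markers passed after sham or BCAS, and the 5 red blood cell markers had medians of -0.58 and -0.88, beside mean rRNA differences of -0.52 to -0.57. Of 8 smooth muscle markers 1 fell in each (Myocd). Of 9 endothelial markers 1 rose and 1 fell after sham and 1 fell after BCAS. Of 3 choroid plexus markers tested 1 rose and 1 fell after sham and 1 fell after BCAS. Of 5 macrophage markers 1 rose in each, of 7 meningeal fibroblast markers 1 rose after sham and 1 rose and 1 fell after BCAS, and the 1 ependymal marker tested rose after sham. With BCAS 4 of 9 endothelial markers rose under AL and 2 of 9 under IF, beside 1 ependymal marker under AL, on average over the days. Of all genes 0.987% passed under AL and 0.758% under IF. The part of cell types in the rRNA and tRNA differences was not tested.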

How the data were processed

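RNA-seq was made from total RNA of cerebral arteries in 78 libraries. The authors deposited 1 table of FPKM per gene and library, per the file headers, and per the submitters' processing notes DESeq 1.10.1 was used, with no role given. The aligner, counter, build, strand setting and library selection are not given in the sources used here. Coordinates matched GENCODE M21 (GRCm38) for all 37 members.

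FPKM values were whole multiples of 1 fragment (100% within 0.05 fragments, below 1000 fragments), which gave fragment counts and depths of 14601572 to 25944175. Genes with at least 1 FPKM in 3 libraries (15707) were tested as log2(FPKM + 1) in limma 3.58.1 (R 4.3.3) with trend and robust variance, 1 mean per group and 58 residual degrees of freedom, and Benjamini-Hochberg adjustment over all genes tested. The test was checked on simulated data for fasting after sham: with 200 of 15707 genes changed by 0.5 (log2), 91% were recovered with 8 false calls. Python 3.11.15, numpy 2.4.6, scipy 1.17.1 and pandas 2.3.3 gave the other values.

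Any member could be named, with tests wherever it passed and for mt-Nd6, mt-Rnr1 and mt-Rnr2 always, and up to 4 genes with the smallest p per list and comparison. Members and lists were chosen with earlier results of these data known. Alternatives were a pseudocount of 0.1, no filter, median-of-ratios size factors, scaling to nuclear fragments, limma-voom on recovered fragments, models of the compared groups alone, and leaving out each library or the short-gene-rich libraries. Leaving out sham AL day 7 was chosen after seeing the data. Replicates were numbered in accession order. The result of 1 marker gene is not reported here.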

Additional observations from a re-analysis of the deposited data

Results flagged for a closer look

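Libraries far from the others of their group were looked for in 6 measures over the groups of 4, 108 checks in all (Dixon's ratio at 95%). Chance gives about 1 in 20 checks, and 4 were found, which is no more than that rate gives. BCAS IF day 21 replicate 4 had a mitochondrial share of 4.62% of fragments, where the other libraries of its group had 6.45% to 6.597%. For mt-Nd6, sham AL day 1 replicate 1 stood at 11052.5 FPKM against 6780 to 7197 in the rest of its group, and sham AL day 21 replicate 1 stood at 7739 FPKM against 6461 to 6668. For mt-Tc, BCAS AL day 7 replicate 4 stood at 378 FPKM against 151 to 188.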

How the results depend on the processing

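The fasting differences of mt-Rnr1, mt-Rnr2, mt-Nd6, mt-Tc and mt-Tn over the mean of 5 days kept direction and call under each alternative run and without each single library. The members called for fasting on average numbered 6 to 9 after sham and 5 to 6 after BCAS when 1 library was left out, and 0 for BCAS under either diet and for the interaction. On single days leaving out 1 library gave 1 to 3 calls for BCAS under AL, 0 to 1 under IF, 3 to 9 for fasting after sham and 4 after BCAS. The count of 9 came without sham IF day 7 replicate 1. Over days, leaving out 1 library gave 3 to 6 in sham AL, 0 to 1 in sham IF, 0 to 2 in BCAS AL and 1 to 3 in BCAS IF. Without the short-gene-rich libraries the single-day calls were 0 for BCAS under AL and 1 under IF (mt-Te, day 30), and 0 members passed over days in sham AL. With the compared groups alone these were 0 for BCAS under AL, and over days 0 in sham AL, 2 in sham IF (mt-Tp and mt-Rnr1) and 1 in BCAS IF (mt-Nd3). With no filter 2 members passed over days in sham AL (mt-Rnr2 and mt-Ts2). Without sham AL day 7 and its counterpart the mean BCAS differences under AL turned to 0.0605 for mt-Rnr1 and 0.0604 for mt-Rnr2, neither past the threshold. Leaving out 1 library moved mt-Nd6 from -0.0515 to 0.0258 for BCAS under AL and from -0.0752 to 0.0185 under IF, none past the threshold. With Ptgds taken out of the total the mitochondrial share was 7.22% in sham IF and 6.72% in BCAS AL. The cause of these changes was not tested. The interaction has no model of its own groups alone, since it uses all groups. No paired analysis was possible because the titles carry running numbers that differ in every library, so no number is shared between groups, and the replicate numbers used here follow accession order. Depth limits the low rows: the median library had 3 fragments for mt-Tm, 28 for mt-Atp8 and 36.5 for mt-Tl1.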

Other observations

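Beside the mitochondrial genes, the genes most like mt-Rnr1 within groups were looked up. Of 12568 genes with a median of at least 1 FPKM, 99 were related to it by limma with mt-Rnr1 as a covariate beside the 20 groups, 47 positively and 52 negatively. The p-values were adjusted over the 15674 genes tested other than the mitochondrial ones. Over 78 libraries the most alike were Pik3ca, a catalytic subunit of PI3-kinase (r = 0.604, rho = 0.575), Lats2, a kinase of the Hippo pathway (r = 0.602, rho = 0.552), and Emsy (r = 0.575, rho = 0.495). The most opposite with a known role was Cirbp, a cold-inducible RNA-binding protein (r = -0.572, rho = -0.512). The co-chaperones Chordc1 and Dnaja1 had r = 0.569 and 0.564. These are descriptions over libraries that share a total.

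Some of these genes, and the chaperone Hsph1 that is not among those named above, also differed by diet. On average over days Dnaja1 fell with fasting by 0.86 after sham and 0.86 after BCAS, Chordc1 fell by 0.60 and 0.53, and the chaperone Hsph1 fell by 1.01 and 1.09 on the log2 scale. Cirbp rose by 0.98 and 0.97. All passed in limma, where 23.7% of all genes passed after sham and 23.1% after BCAS. The genes named here were chosen after their values were seen.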
